A study of Mus musculus with 4 samples.

Results

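Ifitm1, Ifitm2 and Ifitm3 are 3 genes of the interferon-induced transmembrane (IFITM) family and 3 of the 30360 genes counted in 4 single-cell libraries of mouse colonic organoids. They were chosen by symbol because their levels set epithelial and mesenchymal cells of these cultures apart, so their levels are a description and carry no test. Organoids were grown in Matrigel from the distal colon of 16-week-old wildtype or Tnfr2-/- mice. Tnfr2-/- mice lack tumor necrosis factor receptor 2, the product of Tnfrsf1b, as a genotype of the whole mouse rather than of 1 cell type. After passage 5, cultures of each genotype received vehicle (untreated) or the cytokine tumor necrosis factor (TNF, 20 ng/ml), which was present between days 1 and 6. All were dissociated on day 7 and depleted of apoptotic cells. Each of the 4 groups was 1 culture and 1 library. Differences between groups therefore have no replicate check, no p-value is given, and culture, genotype, treatment and library cannot be told apart.

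IFITM proteins are small membrane proteins that hinder enveloped viruses from fusing with the cell. IFITM1 acts mainly at the cell surface, whereas IFITM2 and IFITM3 act mainly in endosomes. Type I, II and III interferons raise their transcription through STAT complexes that bind short elements near the start of the gene. IFITM genes also have a constant level in several tissue stem cells and stromal cells without added interferon. In the intestine, IFITM genes have also been described as targets of Wnt signalling, the pathway that maintains crypt stem cells.

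The 3 genes lie together on chromosome 7. In GENCODE M21 (GRCm38, which the files call mm10) Ifitm2 (ENSMUSG00000060591) spans chr7:140954837-140955987 on the minus strand with 2 exons, Ifitm1 (ENSMUSG00000025491) spans chr7:140967221-140969825 on the plus strand with 2 to 3 exons in 3 transcripts, and Ifitm3 (ENSMUSG00000025492) spans chr7:141009586-141010770 on the minus strand with 2 exons. With Ifitm5, Ifitm6, Gm45717 and Gm7514 they make up 7 genes in 69.0 kb. Ifitm2 shares 1101 bases with Gm45717 on the same strand, and Gm45717 had 0 UMIs (unique molecular identifiers, 1 per captured transcript) in all 4 libraries. The last 500 bases of each gene, where 3' libraries are read, hold 451 words of 50 bases. Of these, 189 of Ifitm2 (41.9%), 63 of Ifitm3 (14.0%) and 53 of Ifitm1 (11.8%) also occur in other genes, among them other members. Apart from members and Gm45717, the genes that share these words were not among the genes counted. Reads from shared words could be assigned to another member or dropped. These shares of words do not measure the error of the 3 levels, which was not tested.

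The stretches around the start sites are shown because interferon-response elements near the start are the feature by which the members are usually described, and the members differ in it. Each line gives 60 bases before and 30 bases from the RefSeq start (GRCm38.p6), 5' to 3' along the gene, with capitals marking matches to GAAANNGAAA, the core of the interferon-stimulated response element, searched on both strands.
Ifitm1 (chr7:140968016-140968105, plus strand): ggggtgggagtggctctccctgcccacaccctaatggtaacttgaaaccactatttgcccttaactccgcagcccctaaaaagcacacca
Ifitm2 (chr7:140955932-140956021, minus strand): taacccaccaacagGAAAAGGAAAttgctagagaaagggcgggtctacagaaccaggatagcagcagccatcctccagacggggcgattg
Ifitm3 (chr7:141010715-141010804, minus strand): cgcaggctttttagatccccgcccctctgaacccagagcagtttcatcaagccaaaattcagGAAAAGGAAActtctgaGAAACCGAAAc
In the whole RefSeq window of 300 bases, 250 before the start and 50 after it, Ifitm2 held 1 match, Ifitm3 held 2 matches and Ifitm1 held none. Of all 32841 such windows, 3.44% held at least 1 match and 0.225% at least 2. Among 34 windows of 31 interferon target genes listed for this report, 18 (52.9%) held one. Ifitm3 also held TTCNNNGAA, the STAT dimer core, which 8.30% of all windows hold and which overlapped its second GAAANNGAAA match by 3 bases, and 1 match to the NF-kB consensus, which 5.81% of all windows hold. For Ifitm1, GENCODE places a start 855 bases upstream of the RefSeq start, outside this window, whereas for Ifitm2 and Ifitm3 both annotations differ by 26 bases. A match describes letters only, and its absence from 1 window says nothing about the factor.

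The wildtype libraries held 2589 cells (untreated) and 1469 cells (TNF) and the Tnfr2-/- libraries 1117 and 980, which makes 6155 in all, with 44547639 to 87228093 UMIs per library. The submitters assigned the cells to 11 classes, of which 7 are epithelial and 4 mesenchymal. Values given in fours below follow this order. Mesenchymal cells numbered 1430, 306, 90 and 122, and epithelial cells 1128, 1163, 1023 and 858. All 7 epithelial markers checked (Epcam among them) were higher in epithelial cells and all 9 mesenchymal markers (Col3a1 among them) in mesenchymal cells of every library. The summed level of the epithelial markers in mesenchymal cells was 142 to 256 CPM (UMIs of a gene per 1000000 UMIs) in 3 libraries and 823 CPM in Tnfr2-/- TNF. The immune marker Ptprc had 0 to 3 UMIs per library. Tnfrsf1b was still counted in both Tnfr2-/- libraries, at 1.82 CPM (untreated) and 6.89 CPM (TNF) in epithelial cells against 4.17 and 12.1 CPM in wildtype, and since 3' tags can lie outside the deleted part this does not check the genotype.

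Levels below are UMIs summed over the cells of a group in 1 library and divided by the group's total, in CPM, with exact Poisson 95% intervals that cover counting error only. As 1 UMI stands for 1 transcript end, these levels do not grow with transcript length. Mesenchymal cells held the IFITM genes at their highest levels. Ifitm3, the member best known for blocking virus entry in endosomes, stood at 3040 CPM in wildtype untreated and 2658 in wildtype TNF, and at 2614 in Tnfr2-/- untreated and 1407 in Tnfr2-/- TNF. It ranked 44th, 51st, 43rd and 112th of all genes there. Ifitm2 stood at 1566, 742, 1141 and 421 CPM in the same order, and Ifitm1 at 914, 251, 435 and 93.5 CPM. For all 3 genes the Tnfr2-/- TNF library was the lowest, and for Ifitm1 the 4 intervals were far apart (904 to 924, 243 to 260, 408 to 464 and 85.0 to 103 CPM).

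Epithelial cells held Ifitm2 and Ifitm3 at lower levels and hardly any Ifitm1. Epithelial Ifitm2 was 120.3 CPM in wildtype untreated, 215 in wildtype TNF, 164 in Tnfr2-/- untreated and 100.1 in Tnfr2-/- TNF. Epithelial Ifitm3 was 87.5, 155, 223 and 25.6 CPM in the same order. Ifitm2 thus varied by little more than 2-fold among the libraries, with wildtype TNF highest, whereas Ifitm3 was highest in Tnfr2-/- untreated and low in Tnfr2-/- TNF. Epithelial Ifitm1 was 2.03, 0.70, 0.30 and 0.18 CPM, from 102, 29, 15 and 7 UMIs.

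Within each library all 3 members were at least 2-fold higher in mesenchymal than in epithelial cells. Of all genes with at least 20 CPM in either group, 25.1%, 21.2%, 23.1% and 20.9% were so in the 4 libraries. Differences in log2(CPM + 1) were 8.24, 7.21, 8.40 and 6.33 for Ifitm1, 5.10, 4.09, 3.54 and 5.73 for Ifitm3, and 3.69, 1.78, 2.79 and 2.06 for Ifitm2. With every class given equal weight, the Ifitm2 difference of Tnfr2-/- TNF was 0.74 and under 2-fold. Ifitm1 was the member that set the compartments furthest apart in all 4 libraries. These values are those for which the members were chosen. Mesenchymal cells held 96.0% to 99.2% of all Ifitm1 UMIs of a library. They held 88.2%, 55.1%, 22.8% and 33.6% of Ifitm2 and 94.0%, 85.9%, 32.9% and 86.8% of Ifitm3, while being 55.2%, 20.8%, 8.06% and 12.4% of cells. Summed over all cells, Ifitm1 was 375, 66.5, 18.6 and 10.2 CPM, and in such sums fewer mesenchymal cells and less RNA per cell cannot be told apart.

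RNA from other cells can reach a droplet, so the epithelial levels were set beside those of the 9 mesenchymal markers. Relative to mesenchymal cells of the same library, epithelial cells held the markers at a median of 0.085% in wildtype untreated, 0.282% in wildtype TNF, 0.026% in Tnfr2-/- untreated and 0.073% in Tnfr2-/- TNF. The highest marker stood at 0.218% (Vim), 0.631% (Lum), 0.093% (Vim) and 0.142% (Pdgfra). Ifitm1 stood at 0.222%, 0.279%, 0.068% and 0.188%, within the range of the markers in wildtype TNF and Tnfr2-/- untreated and just above the highest of them in the other 2 libraries. By class it stood further above the highest marker in some pools, on few UMIs. In Progenitor.3 of wildtype untreated it stood at 0.895% (12 UMIs) against 0.365%. In Secretory-Reg4-Spdef-Lyz1 of Tnfr2-/- untreated it stood at 0.576% (6 UMIs) against 0.071%. The part of mesenchymal RNA in epithelial Ifitm1 was not tested. Ifitm2 stood at 7.68%, 29.0%, 14.4% and 23.8% and Ifitm3 at 2.88%, 5.83%, 8.54% and 1.82%, all above the highest marker of that library.

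**Figure D1:**
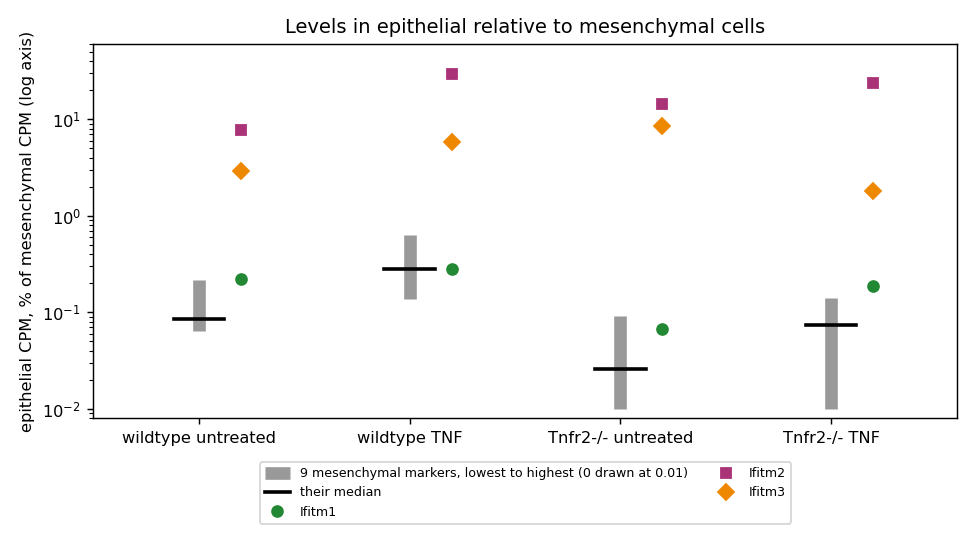
Epithelial level as a percentage of the mesenchymal level of the same library on a log axis, for the 3 members (points) and the lowest to highest of 9 mesenchymal markers (grey bars, a marker at 0 drawn at 0.01, the black line their median). Ifitm2 and Ifitm3 lie above the markers in all 4 libraries, from 1.82% to 29.0%, while Ifitm1 lies at 0.068% to 0.279%, within or above the bars.

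Among mesenchymal classes of wildtype untreated, the same pair was highest for all 3 genes. The class the submitters named after Ifitm1 (892 cells) held Ifitm1 at 1229, Ifitm2 at 1786 and Ifitm3 at 3519 CPM. The proliferative class (111 cells) was close to it at 1045, 1521 and 3184 CPM. The generic class (393 cells) held 130.3, 1086 and 1888 CPM, and the class named after Ptges, a prostaglandin E synthase (34 cells), 219, 1004 and 1690 CPM. In Tnfr2-/- untreated the generic class (51 cells) held 671, 1424 and 3579 CPM, above the 56.4, 659 and 993 CPM of Mesenchyme-Ptges (37 cells). Among the 4 classes of wildtype untreated, Ifitm1 spanned 9.43-fold, whereas Ifitm3 spanned 2.08-fold and Ifitm2 1.78-fold. The classes come from clustering on all genes of these cells, and 1 was named after a member, so their differences are not a test.

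Epithelial classes formed a different order for each gene. For Ifitm2, enteroendocrine cells, the hormone-making cells of the epithelium, were highest at 343 CPM (wildtype untreated), 513 (wildtype TNF) and 404 (Tnfr2-/- TNF). Progenitor.3, Progenitor.1 and the Secretory-Reg4-Spdef-Lyz1 class followed with ranges of 179 to 467, 172 to 315 and 202 to 222 CPM, which overlapped. Progenitor.2 was lower in every library at 4.17, 27.7, 20.4 and 67.2 CPM, and Absorptive cells of wildtype untreated held 14.8 CPM. For Ifitm3, Progenitor.1 was at 145, 264, 291 and 85.2 CPM and Progenitor.3 at 100.2, 405 and 132 CPM, while enteroendocrine cells held only 42.7, 54.0 and 45.1 CPM. Progenitor.2 held 5.36, 13.1, 14.5 and 16.4 CPM and Absorptive cells 7.66 CPM, ranges that overlap. Enteroendocrine cells therefore had the highest epithelial value for Ifitm2 in the libraries with at least 20 such cells, but held less Ifitm3 than Progenitor.1 of the same libraries. These pools held 27 to 33 cells. In wildtype TNF the Ifitm2 interval of enteroendocrine cells (466 to 563 CPM) overlapped that of Progenitor.3 (435 to 500 CPM).

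Progenitor.1 exceeded Progenitor.2 in all 4 libraries for both genes. Differences in log2(CPM + 1) were 5.06, 3.46, 3.21 and 2.07 for Ifitm2 and 4.52, 4.23, 4.23 and 2.31 for Ifitm3. In the 4 libraries 16.0%, 15.3%, 11.5% and 14.8% of all genes were at least 2-fold higher in Progenitor.1. In Progenitor.2 of wildtype untreated (62 cells) Ifitm2 rested on 7 UMIs and Ifitm3 on 9, and both stood at 0.27% and 0.18% of the mesenchymal level, against 0.17% for the highest mesenchymal marker.

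Secretory-Reg4-Ang4, a class with 246 cells in wildtype TNF, held all 3 genes, Ifitm1 at 27.5, Ifitm2 at 198 and Ifitm3 at 322 CPM. Its cells were shallow, with a median of 1957.5 UMIs, and held the mesenchymal markers at a median of 13.9% of the mesenchymal level, between 4.28% and 42.1%. Ifitm1 stood at 10.9%, Ifitm2 at 26.7% and Ifitm3 at 12.1%, all within that range. The part of mesenchymal RNA in these levels was not tested.

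**Figure D2:**
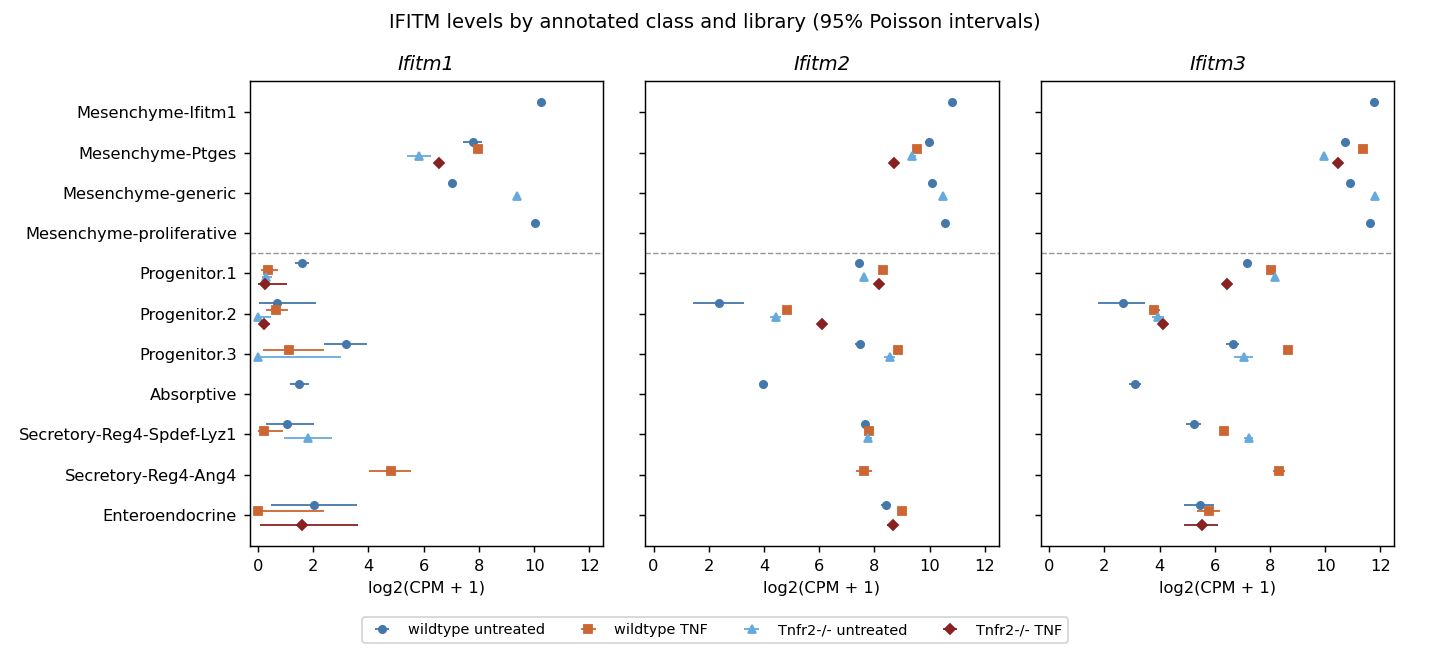
Levels in CPM on a log axis for each class and library with at least 20 cells, with 1 panel per gene and exact Poisson 95% intervals. Within each library the mesenchymal classes are above the epithelial ones for all 3 genes. Progenitor.2 lies below Progenitor.1 for Ifitm2 and Ifitm3 in each library, and epithelial Ifitm1 lies under 10 CPM outside the Reg4-Ang4 class.

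Thinning every cell to 5000 UMIs, which left out 405 shallower cells, gave the share of cells with at least 1 UMI at equal depth. In mesenchymal cells Ifitm3 was found in 94.2% to 99.8% and Ifitm2 in 83.3% to 98.6%, close to all cells. Ifitm1 was found in 69.2%, 31.9%, 45.3% and 21.7% of them, and cells with all 3 members were nearly as frequent as cells with Ifitm1, at 69.0%, 30.5%, 45.3% and 20.8%. In epithelial cells Ifitm2 was found in 35.0%, 49.6%, 42.5% and 28.5%, Ifitm3 in 16.9%, 27.6%, 23.0% and 8.16%, and Ifitm1 in 0.12% to 0.92%. Within Progenitor.1 the shares were 48.2%, 69.9%, 52.8% and 73.4% for Ifitm2 and 26.4%, 38.8%, 30.9% and 23.4% for Ifitm3. In Progenitor.2 they were 1.79%, 9.63%, 7.11% and 20.4% for Ifitm2 and 5.36%, 7.41%, 3.11% and 5.92% for Ifitm3. Without thinning, Ifitm2 was found in 76.6%, 94.9%, 81.9% and 95.8% and Ifitm3 in 54.8%, 69.0%, 53.3% and 49.5% of Progenitor.1 cells.

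Within Progenitor.1, Ifitm3 was far less evenly spread over cells than Ifitm2. The median cell held Ifitm2 at 135, 316, 157 and 265 CPM, near the class level, but Ifitm3 at only 15.3, 56.7, 17.9 and 0 CPM. The 10% of cells with the most Ifitm3 held 66.3%, 52.0%, 67.3% and 54.7% of its UMIs, and the 10% with the most Ifitm2 held 36.8%, 27.9%, 34.2% and 30.7%. At the 90th percentile a cell held Ifitm3 at 607, 963, 1054 and 319 CPM. The high class level of Ifitm3 in Tnfr2-/- untreated came with a low median cell and a high upper end. Wildtype untreated had a similar median cell (15.3 against 17.9 CPM) and share in the top 10% of cells (66.3% against 67.3%). Its 90th percentile was lower (607 against 1054 CPM).

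The level of both genes over single Progenitor.1 cells, thinned to 10000 UMIs, was set beside that of 6742 genes. These were the genes found in at least 10% of such cells in every library. The correlations are over 538, 334, 639 and 93 cells of 1 library each, and cells share depth and library, so they are descriptions. The gene most like both members was Smoc2, a matrix-associated protein known from crypt-base stem cells, with a Pearson r of 0.53, 0.44, 0.43 and 0.37 with Ifitm2 and 0.38, 0.36, 0.29 and 0.27 with Ifitm3. Lgr5, the Wnt-receptor partner that marks intestinal stem cells, was 6th for Ifitm3 and 30th for Ifitm2 (r = 0.44, 0.27, 0.18 and 0.22). Ifitm2 itself was the second for Ifitm3, at 0.36, 0.30, 0.22 and 0.35. The stem cell markers Lgr5, Smoc2, Ascl2 and Axin2, listed after values were seen, all had an r above 0 with both members in all 4 libraries, with medians of 0.14 to 0.33 for Ifitm2 and 0.19 to 0.32 for Ifitm3. Of all genes compared, 49.6% to 57.5% had an r above 0 with Ifitm2 and 50.2% to 58.2% with Ifitm3. The list holds Smoc2 and Lgr5, named above for their rank, so it adds no separate evidence. Its lowest r was 0.048, for Ascl2 with Ifitm2 in Tnfr2-/- untreated. Among the genes with the most negative r were Krt8 and Krt19, keratins of simple epithelium, for both members, and S100a6 and Lgals3 for Ifitm2.

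Cells were also split by whether they held a UMI of Lgr5, a gene picked after its values were seen. Cells with Lgr5 held Ifitm2 at 365 against 133 CPM in wildtype untreated, 413 against 277 in wildtype TNF, 272 against 175 in Tnfr2-/- untreated and 363 against 276 in Tnfr2-/- TNF. For Ifitm3 the levels were 401 against 119, 485 against 197, 448 against 181 and 139 against 57.1 CPM. Both genes were higher in the cells with Lgr5 in all 4 libraries, and in Tnfr2-/- TNF Ifitm3 was lower in both kinds of cell than in any other library. The split uses the same cells and counts as the correlations with Lgr5, so its direction restates them in CPM and adds no separate evidence.

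Interferon targets mostly had an r below 0 with Ifitm2 in the same cells. With Ifitm3 the count above 0 clearly exceeded the share of all genes only in the untreated libraries. Of 12 listed interferon targets compared, 0, 3, 0 and 1 had an r above 0 with Ifitm2 in the 4 libraries, with medians of -0.12, -0.08, -0.16 and -0.18. With Ifitm3 10, 7, 11 and 6 of the 12 had an r above 0, with medians of 0.12, 0.02, 0.20 and -0.04, where 50.2% to 58.2% of all genes had one with Ifitm3 and 49.6% to 57.5% with Ifitm2. Bst2, an interferon-induced protein that tethers budding viruses, was 9th of the 6742 genes compared for Ifitm3 with r of 0.24, 0.18, 0.34 and 0.18. Isg15, a ubiquitin-like interferon target, had r of 0.22, 0.09, 0.43 and -0.09 with Ifitm3 and below 0 with Ifitm2 in all 4 libraries. Ly6a, a surface protein of regenerating epithelium, had r of -0.57, -0.39, -0.32 and -0.24 with Ifitm2. Bst2, Isg15 and Ly6a were picked for this after the data were seen, and r values this low in sparse counts describe these cells only.

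**Figure D3:**
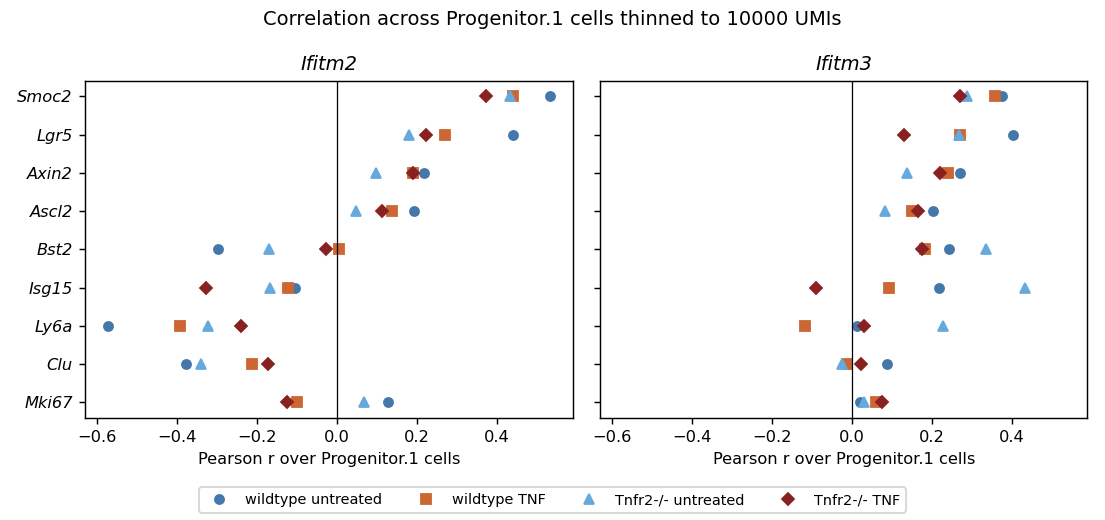
Pearson r over single Progenitor.1 cells between each gene and Ifitm2 or Ifitm3 in each of the 4 libraries. Smoc2 and Lgr5 are above 0 with both members throughout, and Isg15 is below 0 with Ifitm2 and above 0 with Ifitm3 in 3 libraries.

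The members were then compared between genotypes and between treatments, as the design pairs them. In summed epithelial cells Ifitm3 was at least 2-fold higher in Tnfr2-/- than in wildtype without TNF, by 1.34 in log2(CPM + 1), where 2.42% of genes were so much higher and 3.59% lower, and Ifitm2 differed by 0.44. Under TNF the genotype difference was the other way, -2.55 for Ifitm3 and -1.10 for Ifitm2, both at least 2-fold lower, where 6.37% of genes were lower and 5.04% higher. TNF in wildtype went with higher Ifitm2 (0.83) and Ifitm3 (0.82), both under 2-fold, where 2.54% of genes were at least 2-fold higher and 1.08% lower. TNF in Tnfr2-/- went with lower Ifitm3 (-3.08) and Ifitm2 (-0.70), of which the Ifitm3 difference passed 2-fold, where 7.81% of genes were lower and 5.55% higher. None of the 6143 genes tested in that comparison had a lower value than Ifitm3. These 4 comparisons share libraries and are not independent of each other. With TMM factors the Ifitm2 difference under TNF was -0.94 and with classes weighted equally -0.18, and with every cell weighted equally the untreated Ifitm3 difference was 0.77, each under 2-fold.

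Within classes part of this pattern was different, and the make-up of the libraries differed too. Progenitor.1 made up 647 of 1023 epithelial cells in Tnfr2-/- untreated and 95 of 858 in Tnfr2-/- TNF, where Progenitor.2 made up 716. For Ifitm3 the signs within Progenitor.1 were those of the summed cells, with smaller sizes in 3 of the 4 comparisons. Its genotype difference was 1.00 untreated and -1.62 with TNF, and its TNF difference was 0.86 in wildtype and -1.76 in Tnfr2-/-. At least 2-fold were the genotype differences and the one for TNF in Tnfr2-/-, where 1.15% of genes were higher, 2.04% lower and 0.933% lower in these comparisons. The untreated genotype difference lay at the 2-fold limit, and its counting interval of the log2 ratio (0.96 to 1.06) crossed that limit. For Ifitm2 the signs were not kept. With TNF in Tnfr2-/- it was lower in summed epithelial cells (-0.70) but higher both within Progenitor.1 (0.54) and within Progenitor.2 (1.67, at least 2-fold, as were 0.844% of genes).

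In Progenitor.2 Ifitm2 was at least 2-fold higher in all 4 comparisons, by 2.05 and 1.25 between genotypes (untreated and TNF) and by 2.47 and 1.67 with TNF (wildtype and Tnfr2-/-), where 4.32%, 2.99%, 4.28% and 0.844% of genes were. Its wildtype untreated level of 4.17 CPM rests on 7 UMIs (interval 1.68 to 8.59 CPM). Ifitm3 stayed under 20 CPM there, with differences of 1.29 and 0.30 between genotypes and of 1.15 and 0.16 with TNF in the same order. The last had a counting interval of -0.09 to 0.45, and the wildtype untreated level of Ifitm3 rests on 9 UMIs. In summed epithelial cells the genotype difference under TNF (-2.55) and the TNF difference in Tnfr2-/- (-3.08) had the other sign. In Progenitor.3, a class of shallow cells with a median of 8040 UMIs, TNF in wildtype went with higher Ifitm2 (1.38) and Ifitm3 (2.00), where 3.84% of genes were at least 2-fold higher, and Ifitm2 was higher in Tnfr2-/- untreated (1.07), where 5.92% of genes were. In the Reg4-Spdef-Lyz1 secretory class Ifitm3 was higher by 1.99 in Tnfr2-/- untreated and by 1.10 with TNF in wildtype, where 2.58% of genes were higher in each, while Ifitm2 differed by 0.10 and 0.13. In enteroendocrine cells Ifitm2 differed by -0.34 and Ifitm3 by -0.25 between genotypes with TNF, and by 0.58 and 0.33 with TNF in wildtype.

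**Figure D4:**
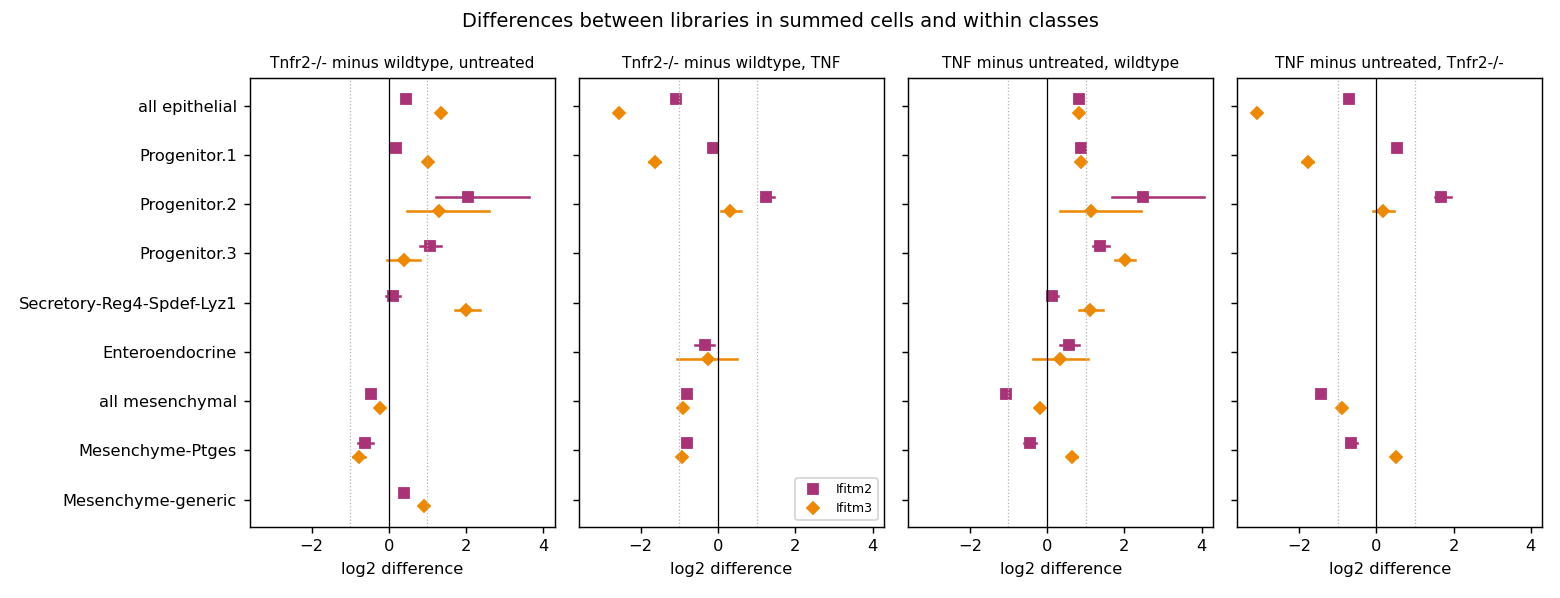
Differences of Ifitm2 and Ifitm3 in log2(CPM + 1) between libraries (points) with 95% counting intervals of the log2 ratio (lines), in summed cells and within classes, where dotted lines mark 2-fold. For TNF in Tnfr2-/-, Ifitm3 is low in summed epithelial cells (-3.08) and in Progenitor.1 (-1.76), while Ifitm2 is at -0.70 in summed epithelial cells, 0.54 in Progenitor.1 and 1.67 in Progenitor.2.

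In summed mesenchymal cells all 3 members had differences below 0 in the 4 comparisons. Ifitm1 was at least 2-fold lower in all of them, by -1.07 and -1.42 between genotypes (untreated and TNF) and by -1.86 and -2.21 with TNF (wildtype and Tnfr2-/-), where 3.95%, 8.42%, 7.21% and 6.74% of genes were lower and 3.84%, 6.09%, 6.03% and 5.71% higher. Ifitm2 differed by -0.46, -0.81, -1.08 and -1.43, the TNF differences being at least 2-fold, and Ifitm3 by -0.22, -0.92, -0.19 and -0.89. With median-of-ratios factors the untreated genotype difference of Ifitm1 was -0.99, under 2-fold. Weighting classes equally used only classes with at least 20 cells in both libraries. For the untreated genotype difference these were Mesenchyme-Ptges and Mesenchyme-generic, and Ifitm1 was at 1.05. For TNF only Mesenchyme-Ptges was left, so the values are those of that class. They were 0.19 and 0.72 for Ifitm1 and -0.44 and -0.64 for Ifitm2, under 2-fold. The 4 libraries held different mesenchymal classes, since 892 of 1430 cells of wildtype untreated were of the class named after Ifitm1 and 304 of 306 cells of wildtype TNF and all 122 of Tnfr2-/- TNF were Mesenchyme-Ptges.

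Within single mesenchymal classes Ifitm1 was compared where both libraries held enough cells. In Mesenchyme-Ptges, the 1 mesenchymal class with at least 20 cells in every library, Ifitm1 was 219 CPM in wildtype untreated, 251 in wildtype TNF, 56.4 in Tnfr2-/- untreated and 93.5 in Tnfr2-/- TNF. It was at least 2-fold lower in Tnfr2-/- in both comparisons between genotypes (-1.94 and -1.41), where 14.0% and 8.52% of genes were lower, and differed with TNF by 0.19 in wildtype (counting interval of the log2 ratio -0.13 to 0.55) and by 0.72 in Tnfr2-/- (0.29 to 1.19). In Mesenchyme-generic, compared between genotypes without TNF, Ifitm1 was instead higher in Tnfr2-/-, at 671 against 130.3 CPM (2.36), where 5.90% of genes were. Differences in these classes ran from -0.81 to 0.39 for Ifitm2 and from -0.92 to 0.92 for Ifitm3. These pools held 34, 304, 37 and 122 cells of Mesenchyme-Ptges and 393 and 51 of Mesenchyme-generic.

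Other genes of the interferon pathway came from a list of 42 target genes, of which 41 were in the table. In summed epithelial cells of Tnfr2-/- untreated, 10 of 24 targets with at least 20 CPM were at least 2-fold higher than in wildtype and 0 lower (all genes 2.42% and 3.59%), with a median difference of 0.78 against 0.11 over all genes. Among them were Ifit3 (2.17), Rsad2 (1.89) and Ifit1 (1.63), genes of antiviral proteins that act on viral RNA or lipids. Ifitm3 at 1.34 lay above that median and Ifitm2 at 0.44 below it. With TNF in Tnfr2-/-, 0 of 24 were higher and 9 lower (all genes 5.55% and 7.81%, median -0.56 against -0.12), among them Cxcl10, a chemokine (-2.67), Ifit3 (-2.06) and Isg15 (-1.57), and Ifitm3 at -3.08 was lower than every one of the 24. In the remaining epithelial comparisons the list and the members differed. Under TNF, 2 of 18 targets were higher in Tnfr2-/- and 1 lower (all genes 5.04% and 6.37%, median 0.35 against -0.10), while Ifitm3 was at -2.55. With TNF in wildtype 1 of 16 was higher and 2 were lower (all genes 2.54% and 1.08%, median -0.12 against 0.04), while Ifitm3 was at 0.82.

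In summed mesenchymal cells 11 of 36 targets were at least 2-fold higher in Tnfr2-/- untreated (Oas2 at 3.37 and Cxcl10 at 2.44 among them) and 0 lower, where 3.84% and 3.95% of all genes were, with a median of 0.75 against -0.09, whereas the 3 members lay between -1.07 and -0.22. Under TNF, 0 of 34 were higher and 8 lower in Tnfr2-/- (all genes 6.09% and 8.42%, median -0.58 against -0.20). With TNF in wildtype 2 of 34, Cxcl10 (2.06) and Gbp2 (1.24), were higher and 1, Iigp1 (-1.33), was lower (all genes 6.03% and 7.21%, median 0.01 against 0.00). With TNF in Tnfr2-/- 0 of 36 were higher and 21 lower (all genes 5.71% and 6.74%, median -1.12 against -0.11), with Ifit3b at -4.18, Ifit3 at -4.14 and Ifit1 at -3.31 and the members between -2.21 and -0.89. Mesenchymal cells also held the targets higher than epithelial cells, 27 of 35, 27 of 34, 28 of 37 and 18 of 31 of them at least 2-fold in the 4 libraries, where 25.1%, 21.2%, 23.1% and 20.9% of all genes were.

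**Figure D5:**
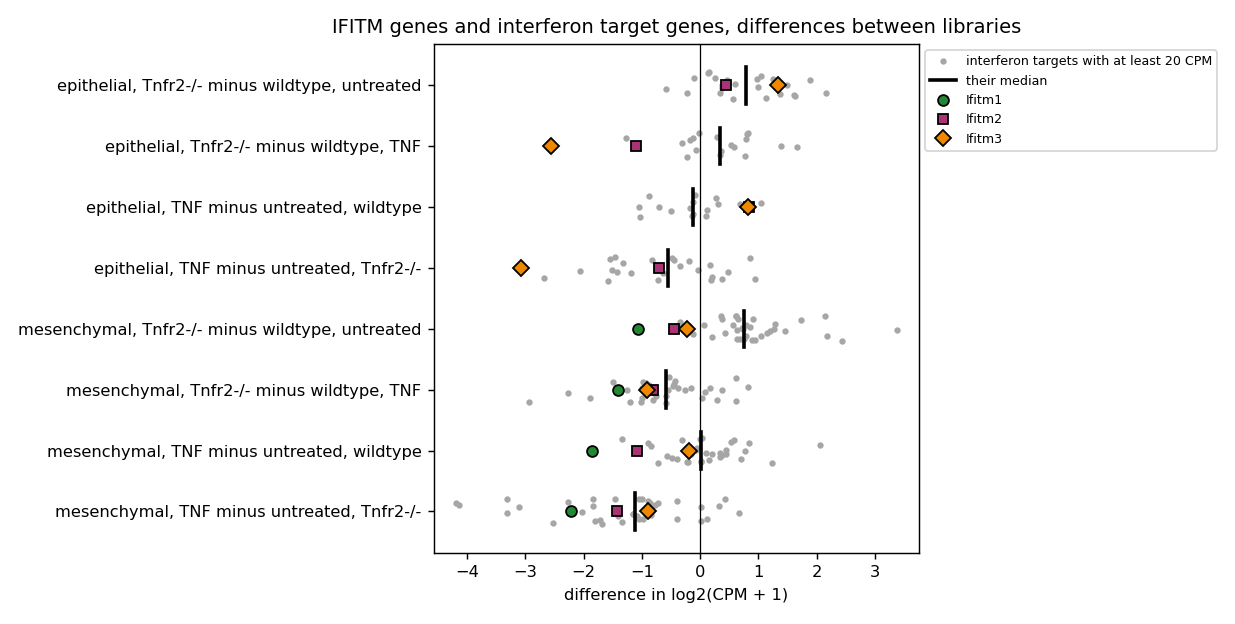
Differences in log2(CPM + 1) of the members (coloured points) and of interferon target genes with at least 20 CPM in either library (grey points, black line their median), for 4 epithelial and 4 mesenchymal comparisons. Ifitm1 is shown only in mesenchymal cells, where it reached 20 CPM. Ifitm3 lies at -3.08 for TNF in Tnfr2-/- epithelial cells and all 3 members lie below the median of the targets in mesenchymal cells of Tnfr2-/- untreated against wildtype untreated.

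Of the listed receptors and signalling genes of the pathway with at least 20 CPM in epithelial cells, 0 of 9, 0 of 10, 0 of 8 and 1 of 10 differed at least 2-fold for genotype untreated, genotype under TNF, TNF in wildtype and TNF in Tnfr2-/-, the last 1 being lower as were 7.81% of all genes. In mesenchymal cells 3 of 16 were higher for genotype untreated (3.84% of all genes) and 1 of 15 was lower for genotype under TNF (8.42%). For TNF in wildtype 1 of 15 was higher (6.03%) and 1 lower (7.21%), and for TNF in Tnfr2-/- 5 of 15 were lower (6.74%). None of 9 listed interferon ligands, type I to III, reached 20 CPM in a compartment. Of the 5 genes whose products modify or bind IFITM proteins (the palmitoyltransferase Zdhhc20, the ubiquitin ligase Nedd4, the methyltransferase Setd7, the membrane protein Vapa and the protease Zmpste24), none differed 2-fold between libraries, although in mesenchymal against epithelial cells Nedd4 was at least 2-fold higher in all 4 libraries and Zdhhc20 in 3 (1.06, 1.02 and 1.45, and 0.77 in Tnfr2-/- TNF). Ifitm5, Ifitm6, Ifitm7 and Ifitm10 stayed under 3 CPM in both compartments.

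The genes most like each member over 27 pools of 1 class in 1 library were taken from 10468 genes by Pearson's r of log2(CPM + 1). The pools share libraries and depth. For Ifitm1 they were Col6a2 (0.97), Snai2, Olfml3, Wnt5a and Gjc1, of which Col6a2 is a matrix collagen and Snai2 a mesenchymal transcription factor. For Ifitm2 they included Fads1 (0.94), Cdc16, Nfix and Cuedc2, and for Ifitm3 they were Tmed1 (0.94), Rasa3, Ppm1m, Tcf7 and Nxn. Between members r was 0.65 for Ifitm1 and Ifitm2, 0.85 for Ifitm1 and Ifitm3 and 0.86 for Ifitm2 and Ifitm3. Over the 19 epithelial pools alone it was 0.11, 0.28 and 0.78. Those pools held 0 to 55 Ifitm1 UMIs each, so a low r with Ifitm1 there cannot be told from counting error. The names also changed with the pools, and of the 5 genes most like each member 0, 2 and 0 (Ifitm1, Ifitm2, Ifitm3) were among the 5 again over epithelial pools alone. For Ifitm1 the 5 over epithelial pools were Sparc (0.81), Col3a1, Bgn, Col1a2 and Col1a1. All but Bgn are among the mesenchymal markers, and the part of mesenchymal RNA in this was not tested.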

How the data were processed

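UMI counts per gene and cell from 10x Genomics 3' libraries were used as the authors deposited them, with a class name for each cell. Per the labels they came from Cell Ranger 5.0.0 and mm10; the paper's methods add removal of cells with under 100 UMIs and of epithelial-mesenchymal doublets, Leiden clustering in monocle3, and a removal of mesenchymal clusters, which the deposited matrix nevertheless holds. Counts were summed over the cells of a compartment or class in each library and scaled to CPM (Python 3.11.15, numpy 2.4.6, scipy 1.17.1). A gene entered a comparison at 20 CPM or more in at least 1 pool and counted as different at 2-fold or more on the log2(CPM + 1) scale. Pools held at least 20 cells. Where classes were weighted equally between libraries, only classes with at least 20 cells in both libraries were averaged. Intervals are 95% exact Poisson intervals and cover counting error only, since molecules of 1 library are no replicates. Groups were single cultures, so they were compared without a test. Scrublet in scanpy 1.11.5 marked 42 cells as doublets in all, 22 of them without a class. They were kept, and an alternative leaves them out. No cell was called in the wildtype TNF library. 3 barcodes occurred in 2 libraries, and leaving those 6 cells out moved no member level by more than 0.344%. Shares of cells used counts thinned to 5000 UMIs. Scripts were tested on simulated counts.

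The members and all gene lists were chosen with earlier results of these data known. Genes named were the members, the 5 genes most like each, the family and partner genes, and from the interferon lists the 3 largest differences each way; the Progenitor.1 correlations, Lgr5, Bst2, Isg15 and Ly6a were added after values were seen. Promoters are RefSeq sequences (GRCm38.p6), matched by symbol for all 3 members, and gene spans are from GENCODE M21. Sequences of the 3 proteins were not used here, and some genes these rules name are not reported here.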

Additional observations from a re-analysis of the deposited data

Results flagged for a closer look

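Several differences between single libraries had opposite signs in the groups compared, and none of these contrasts could be tested, since each group was 1 library. In epithelial cells Ifitm3 was higher with TNF in wildtype (0.82) and lower with TNF in Tnfr2-/- (-3.08), a gap of -3.89 in log2(CPM + 1), which is also the gap between its genotype differences without TNF (1.34) and with TNF (-2.55). For Ifitm2 the corresponding gap was -1.54, between 0.83 and -0.70 for TNF and between 0.44 and -1.10 for genotype. Within Progenitor.1 the Ifitm3 gap was -2.62, from 0.86 to -1.76 for TNF and from 1.00 to -1.62 for genotype. The Ifitm2 gap in Progenitor.1 was -0.33, between genotype differences of 0.19 and -0.14, and its TNF differences there were both above 0.

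Epithelial and mesenchymal cells of the same libraries also had opposite signs. For the genotype difference without TNF, mesenchymal minus epithelial was -0.90 for Ifitm2 and -1.56 for Ifitm3. For TNF in wildtype it was -1.91 for Ifitm2 and -1.01 for Ifitm3. The make-up of both compartments differed between these libraries, and its part in the gaps was not tested.

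In wildtype untreated, 31 cells carried no class and entered no compartment. They held Ifitm1 at 404 CPM (interval 377 to 432), Ifitm2 at 597 CPM (564 to 631) and Ifitm3 at 1121 CPM (1076 to 1167), above the 1.43 CPM that a count of 0 allows, and had a median of 66566 UMIs against 26293 for the library. Scrublet marked 19 of them as doublets.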

How the results depend on the processing

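No paired analysis was possible because each group is 1 library. Of the summary results, 251 stayed close to the reported value under an alternative and 32 moved. Of the values of single genes, 399 stayed, 153 moved and 3 reversed, and the cause was not tested. Reversed here means a change of sign in a difference that was at least 2-fold as reported. Sign changes of any size between libraries numbered 5, 1 and 3 (Ifitm1, Ifitm2, Ifitm3) with classes weighted equally. With every cell weighted equally, 1 Ifitm1 difference changed sign. Members at least 2-fold lower in epithelial cells of Tnfr2-/- under TNF numbered 1 instead of 2 with TMM factors, median-of-ratios factors, every cell weighted equally or classes weighted equally, those higher in Tnfr2-/- untreated numbered 0 instead of 1 with every cell weighted equally, and those higher with TNF in wildtype 1 instead of 0 with classes weighted equally. In mesenchymal cells, members lower in Tnfr2-/- untreated numbered 0 instead of 1 with median-of-ratios factors, and with classes weighted equally 0 were lower and 1 higher. With that weighting, which for TNF leaves only Mesenchyme-Ptges, 0 were lower with TNF in either genotype. The Ifitm1 differences reversed to 1.05 (genotype, untreated), 0.19 (TNF, wildtype) and 0.72 (TNF, Tnfr2-/-). Epithelial Ifitm2 with TNF in Tnfr2-/- was then 0.70 and mesenchymal Ifitm3 0.35, 0.66 and 0.50 in the same 3 comparisons. No member changed sign between compartments under any alternative run. TMM factors moved all epithelial genes by -0.10, 0.16, -0.10 and 0.16 and all mesenchymal genes by 0.05, 0.14, 0.05 and 0.15 (genotype untreated and TNF, TNF in wildtype and Tnfr2-/-). Without the 20 CPM minimum, genes at least 2-fold different numbered 944, 1582, 517 and 1458 in epithelial and 1476, 2280, 1836 and 2256 in mesenchymal cells in that order, and 5800, 5272, 6179 and 5263 between compartments. Of the 41 interferon targets in the table, 23, 6, 4 and 21 then differed in epithelial and 15, 9, 4 and 25 in mesenchymal cells in that order. Between compartments 32, 29, 30 and 26 did. These counts join both directions, and all genes are out of 30360 in the table. No share of genes with counts was computed, so the targets are not read against all genes here. Of the 5 genes most like Ifitm1, Ifitm2 and Ifitm3, 0, 2 and 0 were named again over epithelial pools and 1, 0 and 2 with Spearman's rho. Leaving out Secretory-Reg4-Ang4, and Spearman's rho for the Progenitor.1 correlations, were chosen after seeing the data. Depth limits epithelial Ifitm1 and both other members in Progenitor.2, where counts were few.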
